A study of Cardamine hirsuta with 24 samples.

Results

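The data described here are the uninduced (Mock) seedlings of an induction time course in *Cardamine hirsuta*, compared at 8 h against 4 h. They are 3 Mock libraries of 8 h and 3 of 4 h, out of 24 RNA-seq libraries. All seedlings, Mock and dexamethasone (Dex) alike, were of the Oxford genotype and carried *RCOp::LhG4:GR; Op::ChCUC1:Venus*. Here the promoter of the leaf-shape gene *RCO* drives the LhG4 activator fused to a glucocorticoid receptor, and Dex lets that activator switch on a ChCUC1:Venus fusion. Seedlings 12 days old were kept in liquid MS medium with 0.1% DMSO (the Mock groups, at 2, 4, 6 and 8 h) or with 10 µM Dex (at the same 4 times). Each library came from a pool of 20 seedlings without cotyledons, roots and mature leaves. The Mock series is the uninduced control of the induction, so its later change shows what moved in these shoots over 4 h without Dex. Time in the liquid, time of day and age ran together in this design and cannot be told apart, and the clock time of harvest is not stated in what was read here. The 3 libraries of a group are separate pools. The p-values rest on a spread between pools estimated over all 24 libraries, and measure no other variation.

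Shoot apices of this kind hold the meristem, organ boundaries and young green leaves. In green leaf cells the antenna proteins (LHC) bind chlorophyll and pass light energy to both photosystems, and their nuclear genes are known to follow light, the clock and the state of the chloroplast. Auxin acts in the same tissue by inducing early response genes, some of which promote cell expansion, and cell division draws on histones and replication proteins made in S phase.

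Of 29458 genes listed, 21689 passed the filter on low counts and were tested, and 5014 of the 7769 genes not tested had no count in any of the 6 libraries. Between Mock at 8 h and Mock at 4 h, 1108 genes (5.11% of those tested) were called changed, at a fold over 1.5 and an adjusted p under 0.05. Every adjusted p of a gene comes from the quasi-likelihood test of edgeR, adjusted by Benjamini-Hochberg over all genes tested. The change was mostly downward, with 904 genes lower (4.17%) and 204 genes higher (0.941%) at 8 h. The median fold of called genes was 1.95 among those that fell and 1.79 among those that rose, and 64 genes fell while 8 rose by more than 4-fold. Over all genes tested the median log2 fold change was -0.03. In all of the 204 risen genes and in 883 of the 904 fallen genes, the 3 values of 8 h lay wholly outside those of 4 h. Over all genes tested, the groups did not overlap in 13.1% with 8 h higher and in 15.3% with 8 h lower. In these bulk samples, fewer cells of a type and less RNA per cell cannot be told apart.

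The Mock libraries of 4 h were less alike than those of 8 h, which touches every result here. Gene counts per library were 19.2 to 21.3 M at 8 h and 16 to 18.9 M at 4 h. The median coefficient of variation between replicates was 6.24% at 8 h and 23.3% at 4 h. The fit gave each gene a spread shared by all groups, so this difference was not modelled. At 4 h, replicate 3 stood apart, with 5.77% of genes more than 1 log2 unit from the group mean, against 4.19% in replicate 1 and 2.28% in replicate 2. It had 15.8% of reads without a gene, against 10.9% and 9.73% in replicates 1 and 2, and 22340 genes detected, against 22721 and 22819. It held the highest 4 h value of 642 of the 904 fallen genes. Without it the count of called genes was 545 (71 higher and 474 lower), and 461 of the 1108 genes remained called. Leaving out replicate 1, 2 or 3 of 8 h gave 492, 483 and 449 called genes. With each of the 6 libraries left out in turn, 337 genes (29 higher and 308 lower) were called every time. Markers of tissue that the dissection removed or that is absent at this stage were low in both groups. The 14 root hair genes tested summed to 9.80 to 11.6 CPM at 8 h and 4.67 to 9.11 CPM at 4 h, and 5 of the 15 on the list were at 0 in all 6 libraries. The 5 seed maturation genes summed to 1.78 to 1.86 CPM at 8 h and 1.33 to 9.67 CPM at 4 h (CPM, a gene's count relative to the TMM-scaled size of its library). The 10 boundary and meristem genes tested, the tissue named in the labels, summed to 153 to 173 CPM at 8 h and 144 to 190 CPM at 4 h. The part of these tissue levels in the single results was not tested.

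Of 28 gene lists, photosynthesis and chlorophyll had the lowest median and the most called members. Of its 13 genes, all tested, 10 fell, none rose and 3 did not pass the test. The median log2 fold change of the list was -1.15 (all genes tested, -0.03, with 4.17% called lower). Gene names were available only where a table of the study sets a *C. hirsuta* identifier beside an *Arabidopsis* one. Of 4021 such pairs, 1846 come only from its tests on these same libraries, so no list here is independent evidence of a change. Among the 6 members paired through binding tables, 5 fell. The 13 genes summed to 610 to 658 CPM at 8 h and 2410 to 3401 CPM at 4 h.

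*LHCB2.1* (CARHR103000), an antenna protein of photosystem II, had 26.3, 24.5 and 23 CPM in Mock at 8 h, against 714, 894 and 1488 CPM in Mock at 4 h. The 3 late libraries were nearly equal and far below the lowest early library, a 42.0-fold fall (log2 fold change -5.39 ± 0.36, SE; adjusted p = 2.07e-08 by edgeR). *LHCB2.4* (CARHR149150), of the same antenna family, had 7.16, 6.14 and 6.18 CPM at 8 h, against 170, 150 and 322 CPM at 4 h. Replicate 3 of 4 h was the highest, and the groups did not overlap (log2 fold change -5.04 ± 0.30, adjusted p = 4.39e-09 by edgeR). Near-identical antenna genes can share reads, so the split of reads within this family is uncertain. *LHCB4.2* (CARHR083270), a minor antenna protein, had 80.2, 72.1 and 67.9 CPM at 8 h, against 555, 519 and 560 CPM at 4 h. The libraries of 4 h lay close together, and the fall was 7.42-fold (log2 fold change -2.89 ± 0.20, adjusted p = 2.67e-08 by edgeR). *PORA* (CARHR267410), which reduces protochlorophyllide in chlorophyll synthesis, had 1.07, 0.704 and 0.594 CPM at 8 h and 5.24, 4.65 and 5.33 CPM at 4 h. It was low in all 6 libraries and fell 6.36-fold (adjusted p = 1.14e-06 by edgeR).

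**Figure D1:**
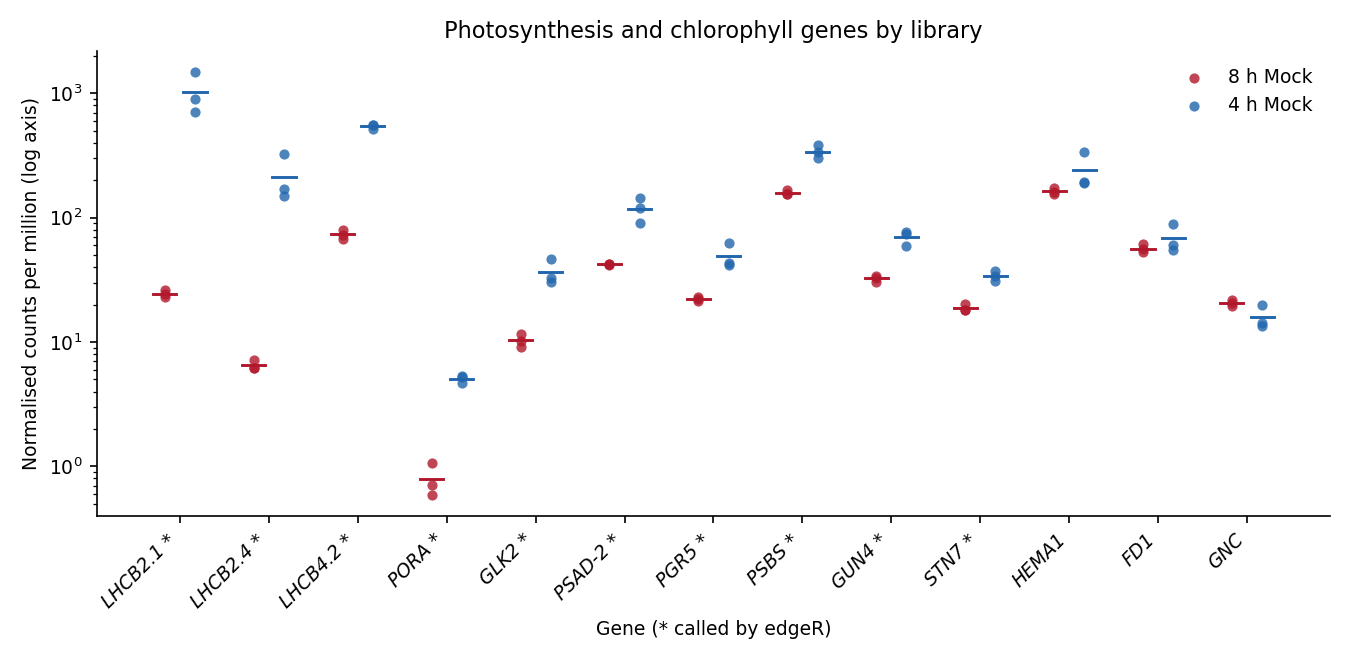
Normalised CPM on a log axis of the 13 genes of the photosynthesis and chlorophyll list in the 3 Mock libraries of 8 h (red) and the 3 of 4 h (blue). Points are libraries, bars are group means and asterisks mark genes called by edgeR. The 10 called genes have all 8 h points below all 4 h points, from *LHCB2.1* (24.6 CPM on average at 8 h and 1032 CPM at 4 h) to *STN7* (18.9 CPM at 8 h and 34.1 CPM at 4 h).

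Regulators and electron transport genes of the list fell less. *GLK2* (CARHR179070), a transcription factor of chloroplast development that acts on antenna and chlorophyll genes in *Arabidopsis*, averaged 10.3 ± 1.26 CPM at 8 h and 36.5 ± 8.58 CPM at 4 h (SD, n = 3 each; adjusted p = 8.96e-05 by edgeR). *PSAD-2*, a subunit of photosystem I, averaged 42.3 ± 0.352 CPM at 8 h and 118 ± 26.9 CPM at 4 h. *PSBS*, needed for the dissipation of excess light, averaged 158 ± 6.66 CPM at 8 h and 341 ± 41.5 CPM at 4 h. These falls of 3.53-, 2.8- and 2.16-fold were followed by *PGR5* of cyclic electron flow (2.22-fold), *GUN4* of chlorophyll synthesis (2.15-fold) and *STN7*, a kinase of antenna proteins (1.8-fold). The calls of *GUN4* and *STN7* rested on single libraries. Both were lost without replicate 2 or 3 of 8 h, which left 8 of the 10 calls each time, and *GUN4* without replicate 3 of 4 h, which left 9. Without all libraries numbered 3 or all numbered 2, and so with 2 libraries a group, 4 and 6 of the 10 were called, and a replicate block with the 6 libraries alone also gave 6. The 4 were *LHCB2.1*, *LHCB2.4*, *LHCB4.2* and *PORA*. *HEMA1*, the first committed enzyme of tetrapyrrole synthesis, had 172, 156 and 160 CPM at 8 h and 335, 192 and 192 CPM at 4 h, with replicate 1 of 4 h far above the others and no call (adjusted p = 0.453 by edgeR). The ferredoxin gene *FD1* and the GATA factor gene *GNC* had overlapping groups, with log2 fold changes of -0.27 and 0.38.

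Further photosynthesis genes outside the list, chosen after their values were seen, included the most abundant gene of both groups by mean CPM. The counterpart of *AT2G34420* (CARHR128500), which encodes an LHCB1 antenna protein, took 1.26%, 1.23% and 1.18% of all gene counts at 8 h, against 3.36%, 2.72% and 5.97% at 4 h. Its levels were 12505, 11906 and 11352 CPM at 8 h, against 39697, 27665 and 69118 CPM at 4 h, a 3.82-fold fall with replicate 3 of 4 h the highest (adjusted p = 0.00199 by edgeR). The 10 most abundant genes together took 5.78% to 6.04% of gene counts at 8 h and 8.04% to 12.7% at 4 h. *AT1G15820* (LHCB6) and *AT1G61520* (LHCA3), antenna proteins of photosystems II and I, fell 4.25-fold and 3.65-fold (adjusted p = 7.86e-06 for each by edgeR). The counterparts of *AT5G66570* and *AT3G50820*, the PSBO proteins of the oxygen-evolving complex, fell 2.12-fold and 2.36-fold, and *AT4G27440* (PORB) fell 2.86-fold. A small subunit gene of Rubisco, *AT5G38430*, had 3991, 3938 and 3935 CPM at 8 h and 6250, 5950 and 5952 CPM at 4 h, a small and even fall of 1.53-fold. The calls of another LHCB1 gene, *AT1G29930* (2.34-fold lower), and of *AT3G55800* (sedoheptulose bisphosphatase of the Calvin cycle, 1.58-fold lower) were lost without replicate 3 of 4 h and without any library of 8 h. The other 7 genes of this paragraph remained called without each of the 6 libraries in turn.

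Light and clock genes were split. Of 14 members 13 were tested, of which 2 fell, 1 rose and 10 did not pass the test, with a list median of 0.18 on the log2 scale. Among all genes tested, 4.17% were called lower and 0.941% higher. *PHOT1* (CARHR149890), a blue-light receptor for phototropism and chloroplast movement, had 36.2, 31.7 and 35.4 CPM at 8 h, against 85.2, 110 and 104 CPM at 4 h. The groups lay well apart, and the 2.90-fold fall held in every alternative run (log2 fold change -1.53 ± 0.16, adjusted p = 6.48e-06 by edgeR). *CDF5*, a DOF factor of the flowering pathway, averaged 2.49 ± 0.291 CPM at 8 h and 5.79 ± 1.43 CPM at 4 h (adjusted p = 0.0027 by edgeR). The rise was in *BOA* (CARHR273030), a clock factor related to LUX, with 8.13, 8.55 and 7.82 CPM at 8 h and 4.49, 3.25 and 4.47 CPM at 4 h. This 2.01-fold rise was not called without replicate 2 of 8 h (adjusted p = 0.0126 by edgeR). *SPA1*, which acts with COP1 to repress light signalling, had 29.0, 24.9 and 28.5 CPM at 8 h and 38.6, 52.4 and 29.3 CPM at 4 h, with groups that nearly touched (adjusted p = 0.0507 by edgeR). Outside the list and chosen after its values were seen, *AT3G44450*, a cryptochrome inhibitor (BIC2), averaged 1.29 ± 0.457 CPM at 8 h and 4.94 ± 1.85 CPM at 4 h (adjusted p = 0.00314 by edgeR).

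**Figure D2:**
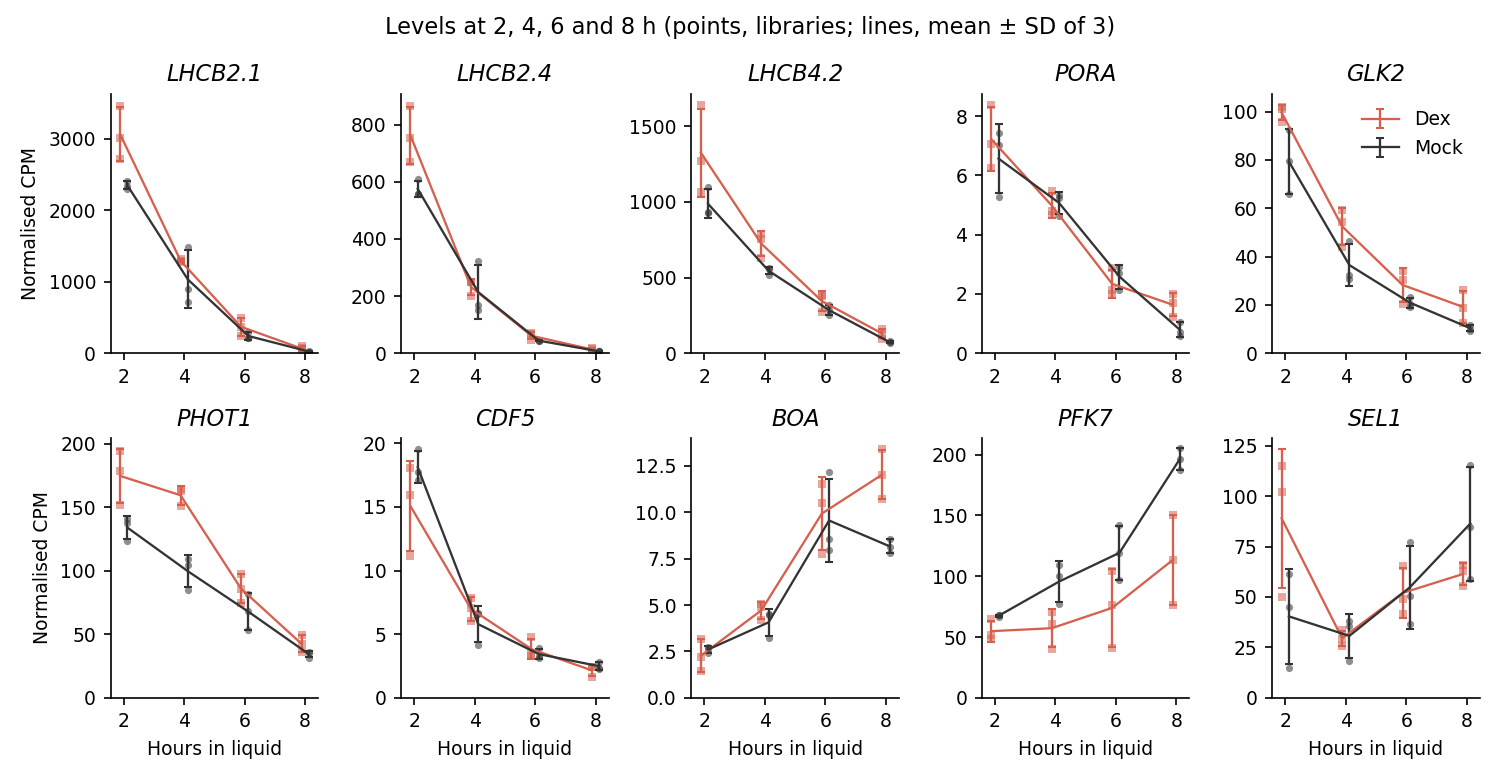
Normalised CPM of 10 genes at 2, 4, 6 and 8 h in Dex (red) and Mock (black) libraries. Points are libraries, and lines join group means with SD bars of 3 libraries. In Mock, *LHCB2.1* averaged 2346 CPM at 2 h, 1032 CPM at 4 h, 241 CPM at 6 h and 24.6 CPM at 8 h, while *PFK7* averaged 67.4, 95.6, 119 and 196 CPM at these times.

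Among growth genes, 4 of the 19 auxin response genes tested fell, none rose and 15 did not pass the test, with a list median of -0.61 on the log2 scale. The share called lower over all genes tested was 4.17%. *SAUR14* (CARHR247900) and *SAUR16*, small auxin-up RNAs, had means of 2.5 and 0.880 CPM at 8 h and 7.19 and 3.82 CPM at 4 h, and neither had overlapping groups (log2 fold changes -1.52 ± 0.33 and -2.1 ± 0.57, adjusted p = 0.00992 and 0.0338 by edgeR). *GH3.9* and *GH3.5*, of a family of enzymes that conjugate hormones to amino acids, fell 3.26-fold and 1.98-fold. Another of that family, *GH3.3*, chosen after its values were seen, had 67.0, 54.9 and 58.2 CPM at 8 h and 35.4, 40.2 and 22.9 CPM at 4 h. Its groups did not overlap, and it was not called (adjusted p = 0.382 by edgeR). The mean level of the list was 1.79 to 1.85 log2 CPM at 8 h and 1.94, 2.31 and 2.72 log2 CPM in replicates 1, 2 and 3 of 4 h. The libraries of 4 h thus differed more from each other than replicate 1 did from 8 h. Without replicate 3 of 4 h, 1 member was called and the median was -0.27, and without replicate 1 or 2 of 4 h there were 6 and 2. Without replicate 1, 2 or 3 of 8 h there were 1, 1 and 0.

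Of 23 xyloglucan enzymes and expansins tested, 2 fell, none rose and 21 did not pass the test (list median -0.52). Since 4.17% of all genes tested were called lower, so few calls say little about the family. *XTH9* (CARHR251660), a xyloglucan endotransglucosylase/hydrolase that remodels walls in growing shoots, had 45.1, 44.7 and 46.9 CPM at 8 h, against 98.0, 104 and 158 CPM at 4 h. The lowest early library was more than 2-fold above every late library (log2 fold change -1.39 ± 0.23, adjusted p = 0.00111 by edgeR). *XTH4* averaged 99.7 ± 6.39 CPM at 8 h and 198 ± 49.8 CPM at 4 h. *FLA9*, a fasciclin-like arabinogalactan protein of the cell surface, had 9.06, 9.11 and 10.8 CPM at 8 h, against 23.8, 39.4 and 93.7 CPM at 4 h. Replicate 3 of 4 h was again the highest (5.42-fold lower, adjusted p = 0.00487 by edgeR). *ATPIP1*, an aquaporin gene of the plasma membrane, fell 4.65-fold. *TIP1;2*, an aquaporin gene of the vacuole chosen after its values were seen, fell 2.01-fold. *GASA4*, a gibberellin-regulated peptide gene, fell 2.18-fold as the only called member of the 9 gibberellin genes tested. Of the 10 called genes of this and the preceding paragraph, *XTH9*, *FLA9* and *ATPIP1* remained called without each of the 6 libraries in turn. The calls that remained were 4, 4 and 3 without replicates 1, 2 and 3 of 8 h, and 8, 8 and 4 without those of 4 h.

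Histone calls depended on single libraries. Of 11 histone genes tested, 5 fell at 8 h, none rose and 6 did not pass the test, with a list median of -0.98. The share called lower over all genes tested was 4.17%. All 11 had a negative log2 fold change, as did 52.9% of all genes tested. *AT5G59690*, an H4 gene, had 43.9, 51.9 and 48.1 CPM at 8 h and 71.8, 76.9 and 117 CPM at 4 h (adjusted p = 0.017 by edgeR). *H2B* (CARHR190650) had 62.5, 67.8 and 57.5 CPM at 8 h and 95.6, 106 and 236 CPM at 4 h. Replicate 3 of 4 h was more than 2-fold above its fellow replicates (2.33-fold lower at 8 h, adjusted p = 0.0286 by edgeR). *HIS4* (H4), *AT1G09200* and *AT5G10400* (both H3) fell by 1.16, 1.08 and 0.91 on the log2 scale and showed the same high value in replicate 3 of 4 h, with 67.1, 107 and 84.3 CPM there against 25.3, 53.8 and 43.4 CPM in replicate 2. Without replicate 3 of 4 h no histone gene was called by edgeR and the list median was -0.50, and none was called without replicate 1, 2 or 3 of 8 h, while 8 and 7 were called without replicate 1 or 2 of 4 h. Before libraries were left out, 10 of the 11 had an unadjusted p under 0.05, and DESeq2 called 8. Copies of histone genes are near identical, so reads may be shared among them. Of 25 DNA replication and cell cycle genes tested, 24 had a negative log2 fold change and 1 passed the test. This was the S-phase cyclin gene *CYCA3;2*, with 8.32, 8.35 and 10.5 CPM at 8 h and 18.8, 16.7 and 16 CPM at 4 h (adjusted p = 0.034 by edgeR). Its call was lost without any library of 8 h and without replicate 1 or 3 of 4 h. The replication clamp genes differed from each other, with *PCNA2* at 20.3 ± 0.942 CPM at 8 h and 33.4 ± 9.96 CPM at 4 h, and *PCNA1*, chosen after its values were seen, at 26.3 ± 2.47 CPM at 8 h and 17.9 ± 1.49 CPM at 4 h, neither of them called.

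**Figure D3:**
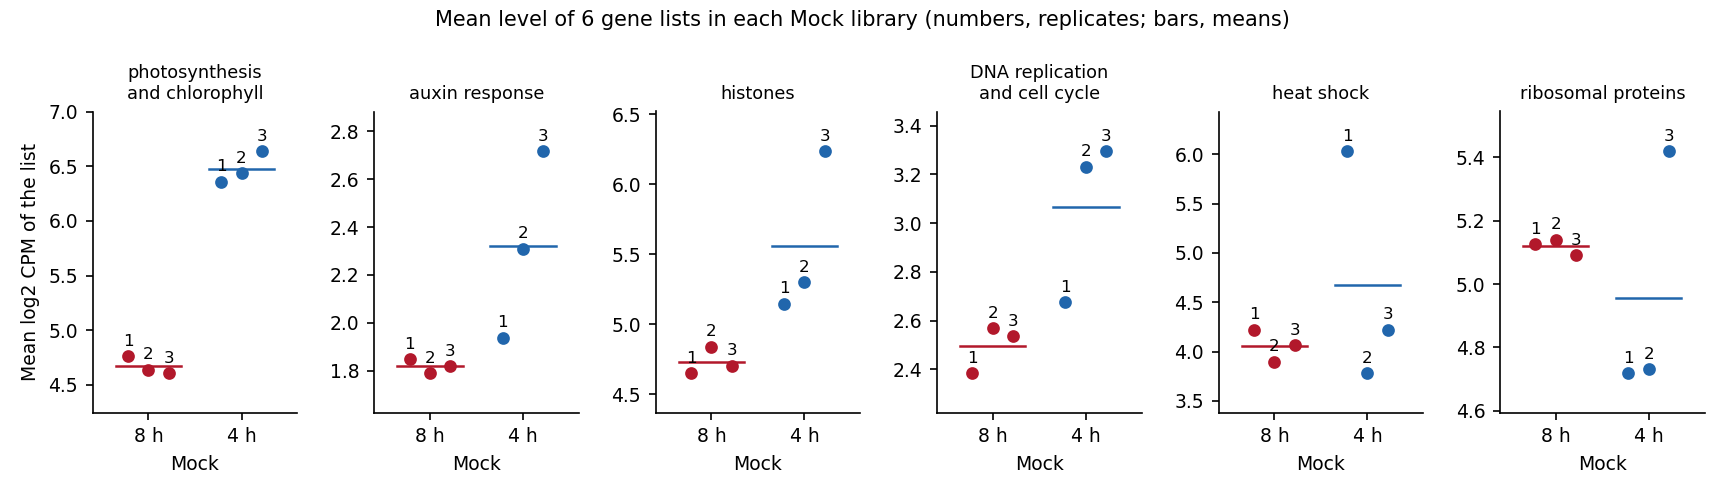
Mean log2 CPM over the tested members of 6 gene lists in the Mock libraries of 8 h (left, red) and 4 h (right, blue). Points are libraries labelled with their replicate number and bars are group means, and each panel has its own axis. Photosynthesis genes lie at 4.61 to 4.76 at 8 h and 6.36 to 6.64 at 4 h, while the histone list reaches 6.23 in replicate 3 of 4 h and the heat shock list 6.03 in replicate 1 of 4 h.

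The genes that rose were fewer, and most of those named rested on single libraries. *PFK7* (CARHR270320), a phosphofructokinase of glycolysis, had 205, 188 and 197 CPM at 8 h, against 109, 101 and 77.0 CPM at 4 h. The groups lay far apart, with a 2.06-fold rise (log2 fold change 1.04 ± 0.28, adjusted p = 0.032 by edgeR). Chosen after their values were seen, 2 further glycolytic genes rose, *AT1G76550*, a subunit of the pyrophosphate-dependent phosphofructokinase (36.9 ± 0.853 CPM at 8 h and 20.7 ± 1.73 CPM at 4 h), and *AT3G52990*, a pyruvate kinase (285 ± 17.9 CPM at 8 h and 159 ± 35.6 CPM at 4 h). *SEL1* (CARHR071460), a sulfate transporter, had 115, 59.0 and 84.7 CPM at 8 h and 18.3, 38.1 and 35.7 CPM at 4 h, with a wide spread at both times (2.81-fold, adjusted p = 0.0407 by edgeR). *PDLP1*, a plasmodesmata-located protein, rose 2.36-fold to 18.8 ± 0.978 CPM at 8 h, against 7.97 ± 1.4 CPM at 4 h (adjusted p = 0.0126 by edgeR). *AT5G42540*, the exoribonuclease XRN2 in *Arabidopsis*, averaged 138 ± 8.03 CPM at 8 h and 73.4 ± 12.2 CPM at 4 h, and *AT1G55610*, the brassinosteroid receptor homologue BRL1, averaged 14.2 ± 0.429 CPM at 8 h and 7.27 ± 2.27 CPM at 4 h. *TT6*, the flavanone hydroxylase of flavonoid synthesis, was the only called gene of 13 flavonoid and anthocyanin genes tested, with 22.8 ± 1.62 CPM at 8 h and 14.8 ± 3.67 CPM at 4 h (1.54-fold, adjusted p = 0.0394 by edgeR). Among all genes tested, 0.941% were called higher. *FAD4*, a plastid desaturase, and *AT1G03840*, the zinc finger factor MAGPIE, rose 1.93-fold and 1.90-fold. The uncharacterised *AT2G01554*, the acyltransferase-like *AT3G26840* and *AT4G20000*, a protein with a VQ motif, rose 3.87-, 3.24- and 3.06-fold at low levels, the highest of them 24.3 CPM for *AT4G20000* in replicate 1 of 8 h. Of these 13 genes, 2, 5 and 3 remained called without replicates 1, 2 and 3 of 8 h, and 7, 10 and 4 without those of 4 h. *AT1G76550* was called each time.

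Genes with no counterpart in the study's tables made up most calls. A counterpart was known for 28 of the 204 risen genes (13.7%), for 153 of the 904 fallen genes (16.9%) and for 16.2% of all genes tested. The fallen CARHR149160 had 0.418, 0.403 and 0.346 CPM at 8 h and 18.8, 19.6 and 36.5 CPM at 4 h, a 63.0-fold fall. CARHR149130 had 2.23, 2.52 and 2.97 CPM at 8 h and 65.8, 73.0 and 45.7 CPM at 4 h, a 23.9-fold fall. Both identifiers are close in number to that of *LHCB2.4*, but the sources used here give them no name. Of the risen genes, CARHR078030 had 0.352 to 0.558 CPM at 8 h and no count in the 3 libraries of 4 h. CARHR052240 had 0.940 to 1.07 CPM at 8 h and 0.0624 to 0.0667 CPM at 4 h. Levels of both were very low, and their calls were lost in 7 of 14 and 11 of 20 alternatives. At 2 h in Mock, CARHR078030 averaged 0.230 ± 0.102 CPM and CARHR052240 averaged 2.17 ± 1.89 CPM, so neither was at its 4 h level throughout the earlier hours.

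**Figure D4:**
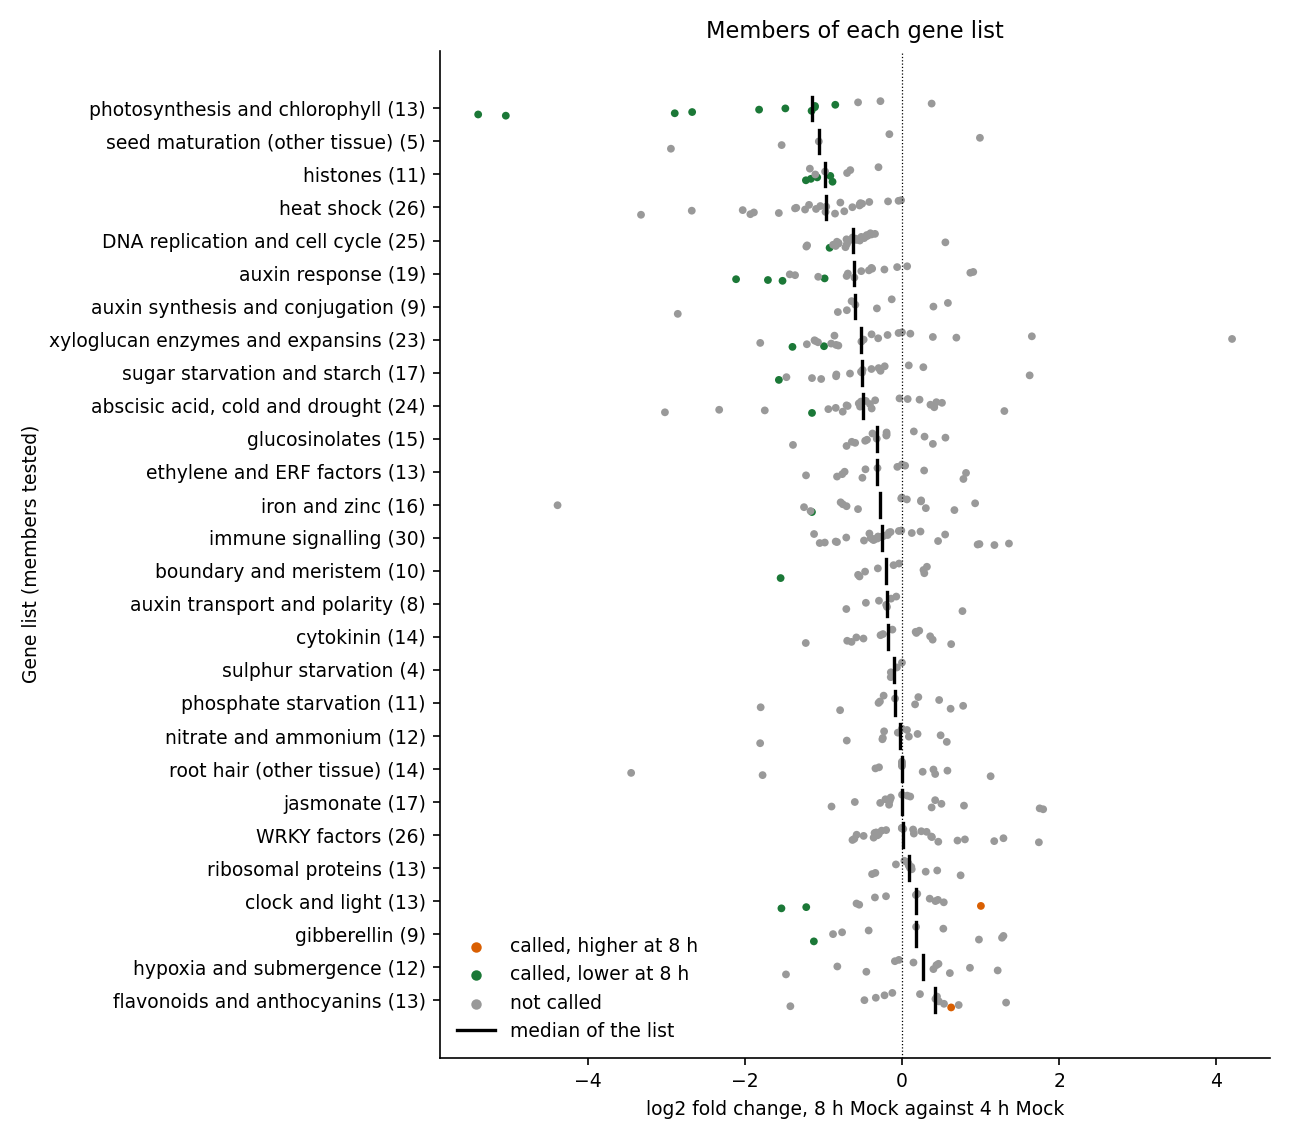
Log2 fold change of Mock at 8 h against Mock at 4 h for each tested member of 28 gene lists, ordered by the list median (black bars), with the number tested in brackets. Orange points were called higher at 8 h, green points lower, and grey points were not called. The photosynthesis list has 10 of 13 points called lower, and 2 members in all lists were called higher.

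Over all 28 lists, 31 of 422 members tested were called, 29 of them lower at 8 h. These were 7.35% and 6.87% of the members, against 5.11% and 4.17% of all genes tested, and outside the photosynthesis list 21 of 409 were called (5.13%). The only call of 17 sugar starvation and starch genes was *BXL1*, a beta-xylosidase, with 34.9 ± 6.35 CPM at 8 h and 103 ± 13.0 CPM at 4 h. That of 24 abscisic acid, cold and drought genes was *COR413-PM1*, a cold-regulated membrane protein, with 112 ± 3.26 CPM at 8 h and 248 ± 90.4 CPM at 4 h. That of 16 iron and zinc genes was *NAS3*, a nicotianamine synthase of metal transport, with 9.69 ± 0.197 CPM at 8 h and 21.4 ± 6.72 CPM at 4 h. *CYP78A5*, a cytochrome P450 that promotes organ growth in *Arabidopsis*, had 2.74, 2.16 and 2.52 CPM at 8 h and 6.43, 6.36 and 8.93 CPM at 4 h. Its 2.92-fold fall was the only call among 10 boundary and meristem genes tested (adjusted p = 0.00192 by edgeR). *CYP78A5* remained called without each of the 6 libraries. *BXL1*, *COR413-PM1* and *NAS3* were lost without replicate 2 or 3 of 8 h, *COR413-PM1* and *NAS3* without replicate 3 of 4 h, and *NAS3* also without replicate 1 of either time. In 16 lists, among them WRKY factors, immune signalling, jasmonate, cytokinin, nitrate and ammonium, and ribosomal proteins, no member was called by edgeR. Of their 229 members tested, 14 had an unadjusted p under 0.05, and DESeq2 called 4.

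All 26 heat shock genes tested had a negative log2 fold change, with a list median of -0.97, and none was called by edgeR or by DESeq2 (3 at an unadjusted p under 0.05). Replicate 1 of 4 h was the high library here, since the small heat shock protein gene *HSP18.2* had 14.4, 8.35 and 9.80 CPM at 8 h and 94.3, 10.4 and 19.3 CPM at 4 h. *HSP22.0* showed the same pattern, with 1.21, 0.654 and 1.24 CPM at 8 h and 26, 1.34 and 3.87 CPM at 4 h. Without replicate 1 of 4 h the list median was 0.04. Replicate 1 of 4 h thus held the highest heat shock level and replicate 3 of 4 h the highest histone and auxin response levels, by mean log2 CPM and by summed CPM. Replicate 1 had the highest heat shock level of the Mock libraries at each of the 4 times, with mean log2 CPM of 5.83, 6.03, 6.26 and 4.22 at 2, 4, 6 and 8 h, and the lowest level of the DNA replication and cell cycle list at each time.

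No change was found in *ChCUC1* or in *WAG1* and *WAG2*, which the study follows downstream of it. *ChCUC1* (CARHR090150), the organ boundary NAC factor whose transgene and endogenous reads cannot be told apart, had 1.53, 2.52 and 1.78 CPM at 8 h and 1.25, 3.5 and 3.33 CPM at 4 h, with overlapping groups (log2 fold change -0.47 ± 0.40, adjusted p = 0.546 by edgeR). *WAG1* and *WAG2*, kinases that act on PIN auxin carriers, stayed at or under about 2 CPM, with 1.18 ± 0.268 and 0.686 ± 0.272 CPM at 8 h and 1.44 ± 0.732 and 0.944 ± 0.612 CPM at 4 h (adjusted p = 0.848 and 0.834 by edgeR). Larger changes were called in *SAUR16* and *PORA*, whose levels were similar at 8 h but higher at 4 h (means of 3.82 and 5.07 CPM). The standard errors of 0.65 and 0.95 on the log2 scale for *WAG1* and *WAG2* leave smaller changes undetectable.

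Split into its steps, the interval showed few calls in the first 2 h and more in the second. Mock at 6 h against Mock at 4 h gave 19 called genes (0.0876%), 3 higher (0.0138%) and 16 lower (0.0738%). The step between the 8 h and 6 h libraries gave 90 (0.415%), 1 higher (0.00461%) and 89 lower (0.41%). Without all libraries numbered 1, 2 or 3 these counts were 21, 2 and 0 for the first step and 187, 6 and 4 for the second. Both steps share libraries with the whole interval, so their values are set side by side only. *LHCB2.1* changed by -2.10 on the log2 scale in the first step and by -3.30 in the second, *LHCB4.2* by -0.94 and -1.96, and *BOA* by 1.23 and -0.23. *PGR5* fell more in the first step (-0.66 and -0.49). The photosynthesis list had a median of -0.63 in the first step and -0.62 in the second. The counts of calls thus do not show in which step the change was larger. The mean of 6 h lay between those of 8 h and 4 h in 195 of the 204 risen genes (95.6%) and in 887 of the 904 fallen genes (98.1%). Genes were called for 8 h and 4 h values far apart, which favours a 6 h mean between them. A steady course does not follow from this. Fallen genes were also picked for high values at 4 h, which favours a lower mean at 2 h. Of the 904 fallen genes, 425 (47.0%) were lower at 2 h than at 4 h, which thus does not show an earlier rise. The LHCB1 gene *AT2G34420* belonged to these, with 23630 ± 4649 CPM at 2 h, 45493 ± 21326 CPM at 4 h, 27467 ± 2437 CPM at 6 h and 11921 ± 577 CPM at 8 h. *LHCB2.1* was highest at 2 h.

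The Dex libraries of 8 h and 4 h share no library with Mock and give the same interval under induction. Between them 480 genes were called (2.21%), 402 lower (1.85%) and 78 higher (0.36%) at 8 h. Leaving out replicate 1, 2 or 3 of Dex at 8 h gave 399, 285 and 248 called genes. Leaving out replicate 1, 2 or 3 of Dex at 4 h gave 660, 271 and 235. Without all libraries numbered 1, 2 or 3 there were 1040, 58 and 61, so the overlaps given here rest on these libraries. Of the Mock calls, 199 of the 204 risen genes (97.5%) and 887 of the 904 fallen genes (98.1%) had the same sign of change in Dex, where 52.7% of all genes tested had a positive and 47.3% a negative change. Without replicate 3 of Mock at 4 h, the share of called genes with the same sign was 99.4%, against 98.0% with it. Genes called the same way in Dex numbered 36 of the 204 risen in Mock, which were 46.2% of the 78 in Dex. Of the 904 fallen in Mock, 320 (35.4%) were called lower in Dex, which were 79.6% of the 402 there, and none was called the opposite way. The difference itself, Mock change minus Dex change, was tested too. No gene was called by edgeR or by DESeq2, and 658 genes had an unadjusted p under 0.05 by edgeR (smallest adjusted p = 0.986), which does not show that the changes were equal.

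Photosynthesis genes fell in Dex as well, with 8 of 13 called lower and a list median of -1.11, against 10 of 13 and -1.15 in Mock. *LHCB2.1* averaged 66.7 ± 29.7 CPM in Dex at 8 h and 1293 ± 22.7 CPM in Dex at 4 h (log2 fold change -4.28, adjusted p = 2.4e-07 by edgeR). *PHOT1* averaged 42.5 ± 6.83 CPM in Dex at 8 h and 159 ± 7.48 CPM in Dex at 4 h (log2 fold change -1.91), and *BOA* averaged 12.0 ± 1.34 CPM in Dex at 8 h and 4.72 ± 0.450 CPM in Dex at 4 h. The histone list had a median of -0.07 and no call by edgeR in Dex, with *H2B* at 128 ± 35.3 CPM in Dex at 8 h and 135 ± 8.61 CPM in Dex at 4 h. The heat shock list had a median of 0.23 in Dex and the auxin response list a median of -1.07 with 2 members called lower. The glycolytic *PFK7* averaged 113 ± 36.8 CPM in Dex at 8 h and 57.2 ± 15.4 CPM in Dex at 4 h (log2 fold change 0.99, adjusted p = 0.0695 by edgeR). *TT6* rose to 39.1 ± 2.25 CPM in Dex at 8 h, against 17.8 ± 3.94 CPM in Dex at 4 h (adjusted p = 0.000743 by edgeR). No gene passed the test of the difference between Mock and Dex, and differences between list medians were not tested.

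**Figure D5:**
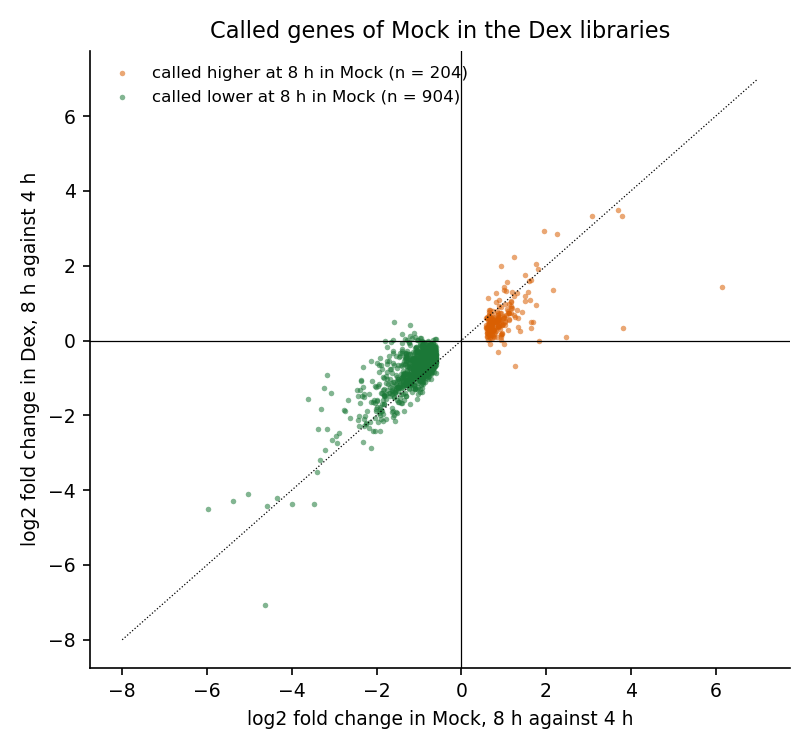
Log2 fold change of 8 h against 4 h in Dex (vertical) plotted against that in Mock (horizontal) for the 204 genes called higher (orange) and the 904 called lower (green) at 8 h in Mock. The dotted line marks equal change. Of these genes 199 and 887 have the same sign in Dex.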

How the data were processed

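Poly(A) RNA was sequenced from directional libraries (NEBNext). Per the labels the authors aligned reads with STAR 2.4.2a, counted them per gene with HTSeq 0.5.4p1 and tested with DESeq (version not given), and they deposited whole-number counts, not normalised. Overlapping or antisense genes are uncertain, since the strand setting is not given in the sources used here, nor are the genome build and annotation. Reads without a gene (10.9% to 11.4% at 8 h, 9.73% to 15.8% at 4 h) were left out.

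Counts of all 24 libraries (12.9 M to 22.96 M) were fitted in R 4.3.3 with edgeR 4.0.16 (TMM, filterByExpr with a minimum count of 10, robust quasi-likelihood test, two-sided), with 1 coefficient for each of 8 groups and Benjamini-Hochberg adjustment over 21689 genes. Calls needed an adjusted p under 0.05 and a fold over 1.5. Log2 CPM used a prior count of 2. Names came from 4021 pairs of identifiers in the study's tables, 3518 of them tested. The alternatives were other scalings and filters, DESeq2 1.42.0, fewer libraries, a replicate block, no fold limit and left-out libraries. The code was checked on simulated counts.

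Named were *ChCUC1*, *WAG1* and *WAG2*, genes from among the 15 paired genes of largest change in each direction with groups that did not overlap, up to 4 members of each list by smallest p, and 2 unpaired genes each way. The other photosynthesis members, *AT5G10400*, *GH3.3*, *TIP1;2*, *PCNA1* and those marked so in the text were added after their values were seen. Members and lists were chosen with earlier results of these data known.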

Additional observations from a re-analysis of the deposited data

How the results depend on the processing

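Under other scalings (RLE 1133, upper quartile 902), filters (none 989, minimum count of 50 1095), DESeq2 (1465, of which 1098 shared), the 12 Mock libraries alone (791) and no fold limit (1323), the count of called genes stayed within 1.5 times the 1108 reported, and the share lower at 8 h was 78.7% to 83.6%. The 6 libraries alone, with the spread estimated from Mock at 8 h and 4 h only, gave 290, and the cause of this lower count was not tested. Leaving out 1 library or 1 replicate number gave 69 to 1804 genes for Mock at 8 h against 4 h and 58 to 1040 for Dex at 8 h against 4 h. The steps of Mock were run only without 1 replicate number. They gave 0 to 21 for 6 h against 4 h and 4 to 187 for 8 h against 6 h. The lowest counts came without replicate 3 (69, 0 and 4) or replicate 2 (58 in Dex) and the highest without replicate 1, and the cause was not tested. The alternatives without single Dex libraries, and the share of signs without replicate 3 of Mock at 4 h, were chosen after seeing the data. DESeq2 gave 746 for Dex, 54 for Mock at 6 h against 4 h and 232 for Mock at 8 h against 6 h, and the difference between Mock and Dex had 0 calls in every alternative run.

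Replicate numbers were not taken to pair the samples, since the labels tie a number to no shared batch. The correlation of deviations between Mock at 8 h and 4 h was 0.117, 0.072 and -0.028 for replicates 1, 2 and 3. Between unlike numbers it was -0.122 to 0.055. These values cannot decide the pairing, since libraries of 8 h deviated little (0.0987 to 0.118 log2 units on average, against 0.270 to 0.387 at 4 h). In Mock, replicate 1 did have the highest heat shock level and the lowest cell cycle level at all 4 times. In Dex, replicate 1 shifted the opposite way. It had the lowest heat shock level (mean log2 CPM of 1.88, 1.74, 1.83 and 2.73 at 2, 4, 6 and 8 h). Its cell cycle level was the highest in Dex at each time (3.73, 3.97, 4.07 and 3.93). A block shared by Mock and Dex cannot take up shifts of opposite sign. With the replicate number as a block, 1125 genes were called in the fit on 24 libraries (1045 shared), 1026 in the 12 Mock libraries alone and 100 in the 6 libraries alone. The block gave 494 for Dex, 15 for Mock at 6 h against 4 h and 82 for Mock at 8 h against 6 h.

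Of 60 called genes named in the sections above or the figures, 10 stayed called without replicate 3, 14 without replicate 2 and 14 of 59 tested with the block on the 6 libraries alone. In 20 alternatives 50 genes were called every time, 2 higher and 48 lower, among them *LHCB2.1*, *LHCB2.4*, *LHCB4.2*, *PORA*, *PHOT1*, *AT1G15820* and *AT1G61520*, and 49 of these 50 were called in Dex. The 2 higher genes, named after their values were seen, were CARHR096650 and CARHR096660, which have no counterpart. In Mock they averaged 28.6 and 10.1 CPM at 8 h, against 2.07 and 1.18 CPM at 4 h. Their log2 fold changes were 3.78 and 3.09 in Mock and 3.32 and 3.34 in Dex. Signs turned in genes that were not called, *FD1* (-0.48 to 0.015), *WAG1* (-0.66 to 0.039) and *WAG2* (-0.87 to 0.22).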
